A study of Mus musculus with 7 samples.

Results

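The genes described here encode the core of the splicing machinery and the SR and hnRNP proteins that steer it. They were taken by name: any gene with a probe set of its own whose symbol belongs to the Srsf, Hnrnp, Sf3a, Sf3b, Snrp (a to g) or Prpf series, together with Tra2a, Tra2b, U2af1, U2af2, Srrm1, Srrm2, Srrm4 and Son. This gave 66 of the 19938 genes tested, namely 10 SR proteins, 6 other factors with arginine-serine (RS) domains, 17 hnRNP proteins, 10 proteins of the small nuclear ribonucleoproteins (snRNPs), 11 factors that recognise the branch point and the 3′ splice site (U2 recognition factors), and 12 Prpf factors. The rule used names only, but it was set with earlier results of these data known. Hnrnpa1, Hnrnpa3, Hnrnph3 and Snrpf match by name but were represented by probe sets shared with other genes, so they are not among the 66.

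The samples were 3 of Trnp1 knockdown and 4 controls (genotype WT), all of mouse strain C57BL/6, each hybridised to 1 Affymetrix gene array. In both groups the cerebral cortex was electroporated at embryonic day 13 with a construct carrying green fluorescent protein (GFP), and 24 h later, at embryonic day 14, the GFP-positive cells were sorted. Trnp1 codes for a DNA-associated nuclear protein found in progenitors of the cortex, and the study's title concerns radial glial fate and cortical folding. The labels call the samples biological replicates but do not say how many embryos each one pools or what the control construct held, and the sort takes transfected progenitors along with their progeny.

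Splicing removes introns in steps carried out by the spliceosome. The U1 snRNP binds the 5′ splice site. U2AF and the U2 snRNP with its SF3A and SF3B complexes bind the polypyrimidine tract and the branch point. The tri-snRNP of U4, U6 and U5 then brings some of the Prpf proteins, among them Prpf8 of the catalytic centre. SR proteins bind exons and mostly promote their inclusion, while hnRNP proteins coat the nascent RNA and often oppose inclusion. In the developing cortex, changes in regulators of this kind switch exons as progenitors become neurons, and many SR genes limit their own protein through exons that send the transcript to decay. A gene-level array reads the amount of transcript and not which exons it contains.

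RefSeq (GRCm38.p6) held promoter windows for 58 of the 66 genes, 77 windows in all, and 6 stretches of 120 bases that end just before the annotated start are shown because they carry the words that were most frequent in these promoters or belong to genes described below. Capitals mark matches, on either strand, to CCGGAAG (the core of an ETS factor site), GGGCGG (an Sp1-type GC box), CCAAT or TATAAA.
Sf3a1, chr11:4160234-4160353, plus strand: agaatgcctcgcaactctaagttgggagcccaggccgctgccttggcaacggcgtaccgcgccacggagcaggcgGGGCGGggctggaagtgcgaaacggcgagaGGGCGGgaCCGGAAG
Sf3a2, chr10:80798615-80798734, plus strand: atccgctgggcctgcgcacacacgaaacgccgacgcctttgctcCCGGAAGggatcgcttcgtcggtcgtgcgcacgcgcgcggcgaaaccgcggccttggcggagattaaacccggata
Snrpc, chr17:27839967-27840086, plus strand: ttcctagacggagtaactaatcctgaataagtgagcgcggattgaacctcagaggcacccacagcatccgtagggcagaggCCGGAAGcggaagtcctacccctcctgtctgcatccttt
Hnrnpa0, chr13:58128557-58128676, minus strand: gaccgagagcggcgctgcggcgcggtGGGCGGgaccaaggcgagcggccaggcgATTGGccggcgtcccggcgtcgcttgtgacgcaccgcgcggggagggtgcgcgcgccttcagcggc
Srsf2, chr11:116853095-116853214, minus strand: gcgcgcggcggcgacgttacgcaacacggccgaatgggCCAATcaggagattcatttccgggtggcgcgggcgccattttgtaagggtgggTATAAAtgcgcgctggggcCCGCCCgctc
Srsf3, chr17:29032540-29032659, plus strand: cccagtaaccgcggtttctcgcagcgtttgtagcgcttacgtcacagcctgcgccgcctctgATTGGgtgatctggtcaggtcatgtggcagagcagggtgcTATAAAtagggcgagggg

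These promoters were rich in CpG dinucleotides. Over the 250 bases before the start, the median number of CpG was 21 in the 77 windows of splicing factors and 6 in all 32851 RefSeq windows (11 in the 19116 windows of genes tested on the array). The word CCGGAAG stood in 27.3% of the splicing factor windows, against 6.91% of all windows and 9.41% of those of tested genes, and GGGCGG in 63.6%, against 32.7% and 45.6%. By role, CCGGAAG was present for 6 of the 8 branch point and 3′ splice site factors with a window, among them Sf3a1, Sf3a2, Sf3a3, Sf3b2, Sf3b3 and Sf3b6, and for 2 of 15 hnRNP genes. CCAAT stood in 46.8% of splicing factor windows, against 33.8% of all windows and 34.6% of those of tested genes, and TATAAA in 6.49%, against 12.4% and 10.6%. In the same order, CACGTG stood in 9.09%, 6.02% and 6.999%, TGACGTCA in 3.90%, 1.55% and 2.03%, and the palindromic NRF1 site in 2.597%, 0.782% and 1.17%. The remaining words searched, the palindromic BANP site and AAGATGGCG, were in none of the 77 windows. They were in 0.390% and 0.606% of all windows, and in 0.623% and 0.774% of those of tested genes. Both strands were searched and matches of different words could overlap. A match describes the letters only, and windows of 1 gene can overlap each other.

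The targeted gene was lower in the arrays labelled as its knockdown. Trnp1 (Entrez 69539) read 4.80, 4.85 and 4.55 on the log2 scale in knockdown samples and 5.07, 4.999, 5.24 and 5.22 in controls, a difference of -0.40 (SE 0.12), with p = 0.0286 by an exact two-sided permutation test, the smallest value that the 35 splits allow. Markers of other cells stood apart in some arrays. The list of 5 interneuron markers (Dlx1, Dlx2, Dlx5, Gad1, Gad2) had a mean log2 level of 5.05, 7.17 and 4.71 in knockdown replicates 1 to 3 and between 4.24 and 4.58 in controls. The 5 endothelial markers averaged between 5.48 and 7.74 in knockdown samples and between 4.24 and 7.11 in controls, the 5 microglia markers between 7.13 and 8.33 and between 6.04 and 9.06, and the 4 measured erythroid markers between 7.76 and 8.91 and between 7.19 and 8.53. All 19 of these markers had a mean difference above 0 and none passed limma's test, and no marker can be at 0 on this scale. Radial glia markers averaged 8.49 to 8.93 in knockdown samples and 8.35 to 9.07 in controls, and neuron markers 9.001 to 9.58 and 9.35 to 9.72, so both cell types of the labelled tissue were present. Knockdown replicate 2 (interneuron list) and control replicate 4 (highest microglia list) are the arrays left out where results are given without them.

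No splicing factor passed the test of knockdown against control. By limma with Benjamini-Hochberg adjustment over all 19938 genes, 0 of the 66 had an adjusted p under 0.05, with a background of 0% of all genes, and the smallest adjusted p among the 66 was 0.825. At an unadjusted p under 0.05, 7 of the 66 were lower and 1 was higher in knockdown samples, that is 10.6% and 1.52%, where the background over all genes was 3.61% lower and 2.2% higher (5.81% in either direction). The lower ones were Hnrnpa0, Sf3a1, Sf3b4, Sf3a2, Prpf18, Prpf6 and Srsf9, and the higher one was Srsf12. Knockdown and control arrays did not overlap for 7 genes, of which Hnrnpa0, Sf3a2, Sf3b2, Prpf18, Prpf38b and Hnrnpul2 were lower (6 genes, background 3.07%) and Srsf2 was higher (1 gene, background 2.59%). Among all genes with a mean log2 level over 8, 7.63% were lower without overlap. Of the 53 splicing factors above that level, 4 were. In bulk samples, fewer cells of a type and less RNA per cell cannot be told apart.

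The count of lower genes rested on single arrays and on the scaling. Leaving out knockdown replicate 1, 2 or 3 gave 1, 10 or 3 lower splicing factors, beside 469, 1522 or 476 lower among all genes. Leaving out control replicate 1, 2, 3 or 4 gave 6, 2, 1 or 4, beside 676, 485, 505 or 721 among all genes. Without knockdown replicate 2 and control replicate 4 together it was 17, with 1 higher, while 1628 of all genes were then lower and 901 higher at the same threshold. These are the knockdown array with the highest and the control array with the lowest mean of the splicing factors, so a larger shift is fixed by leaving them out. After cyclic loess normalization 2 splicing factors were lower and 4 higher, beside 580 and 482 of all genes.

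As a group the splicing factors lay below 0 to the extent that bright genes in general did. The median difference was -0.13 over the 66 genes, with 52 lower and 14 higher, while the median over all genes was -0.0010 with 50.2% lower. Splicing factors give bright signals, with a mean log2 level over 8 for 53 of the 66. Over all 2136 genes above that level the median was -0.16 and 76.5% were lower, and at an unadjusted p under 0.05 10.4% were lower and 0.843% higher. The 53 bright splicing factors had a median of -0.11 with 42 lower, and 4 of them (7.55%) were lower at that threshold. Between levels of 8 and 10 the median was -0.16 for 33 splicing factors and -0.17 for 1837 genes, and above 10 it was -0.07 for 20 splicing factors and -0.13 for 299 genes. The 12 splicing factors between 6 and 8 had a median of -0.31, where that of 4843 genes was -0.10. A level on this array depends on the probes as well as on the transcript, so levels are not compared between genes.

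**Figure D1:**
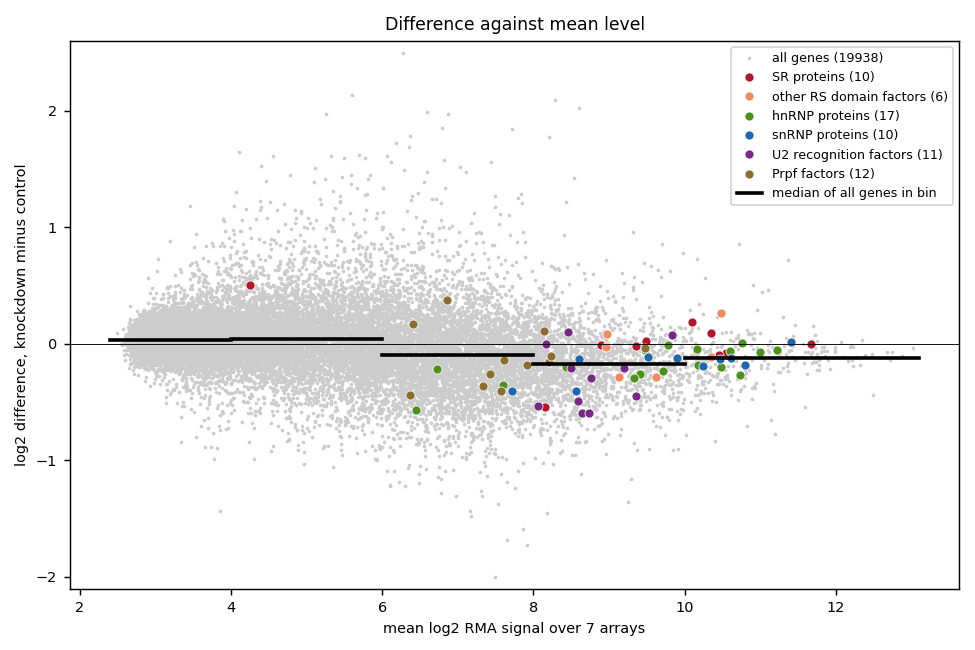
Log2 difference (knockdown minus control) against the mean log2 signal over 7 arrays. Grey points are all 19938 genes, coloured points the 66 splicing factors by role, and black bars the median of all genes in each level bin; the bars above a level of 6 lie below 0, and most splicing factors lie at those levels.

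The group median changed in size with the scaling of the arrays. It was -0.05 after a further quantile normalization, with 39 of 66 lower, and 0.0003 after cyclic loess normalization, with 33 lower and 33 higher. With the array medians set equal it was -0.23 with 61 lower, but this scaling moved the median of all genes to -0.11. Leaving out knockdown replicate 1, 2 or 3 gave medians of -0.038, -0.23 and -0.081 for the splicing factors, and -0.14, -0.25 and -0.084 for the bright genes. With knockdown replicate 2 and control replicate 4 both out the median was -0.26 for the splicing factors and -0.28 for the bright genes. That choice of arrays fixes a larger shift of the splicing factors.

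**Figure D2:**
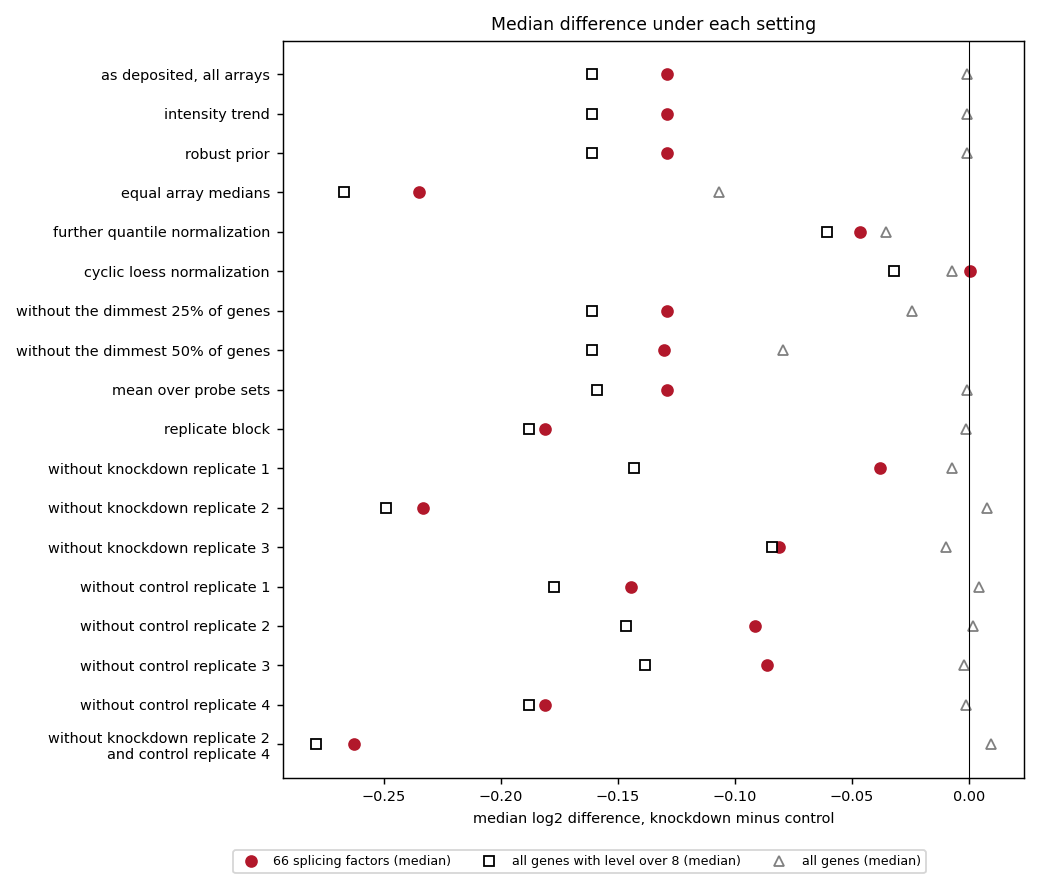
Median log2 difference (knockdown minus control) under each setting, for the splicing factors (filled circles, 66 genes, or 65 without the dimmest 50%), all genes with a mean level over 8 (squares) and all genes (triangles). The circles lie nearer the squares than the triangles in most settings, and the circle for cyclic loess lies at 0.

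The arrays of a group differed from each other more than the groups did. The mean deviation of the 66 genes from their control mean was -0.25, 0.020 and -0.21 in knockdown replicates 1 to 3, and -0.064, 0.084, 0.12 and -0.14 in control replicates 1 to 4. Knockdown replicate 2 thus lay among the controls, and control replicate 4 lay nearer to the other knockdown arrays than to control replicate 3. In knockdown replicate 1 the signal was below the control mean for 53 of the 66 genes, in replicate 2 for 31 and in replicate 3 for 46. Of the knockdown arrays, replicate 1 was lowest for 36 genes and replicate 2 highest for 39. The interneuron list lay above every control in each knockdown array and was highest in replicate 2. Knockdown replicate 1, lowest for most splicing factors, had the highest endothelial list of all arrays (7.74), and replicate 3 had 5.48. The part of the marker lists in these differences was not tested. Knockdown replicate 2 had the highest knockdown mean and control replicate 4 the lowest control mean of the 66 genes. Leaving both out therefore fixes a larger difference for the 66 together. The median differences were then -0.57 for the branch point and 3′ splice site factors, -0.42 for the snRNP proteins, -0.31 for the hnRNP proteins, -0.22 for the other RS domain factors, -0.21 for the Prpf factors and -0.06 for the SR proteins, beside -0.28 for the bright genes. With all arrays they were -0.30, -0.13, -0.20, -0.07, -0.15 and -0.0054 in the same order, beside -0.16. The mean deviation of the snRNP proteins ran from -0.36 to 0.15 in knockdown arrays and from -0.26 to 0.24 in controls, and that of the SR proteins from -0.068 to 0.061 and from -0.11 to 0.12.

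**Figure D3:**
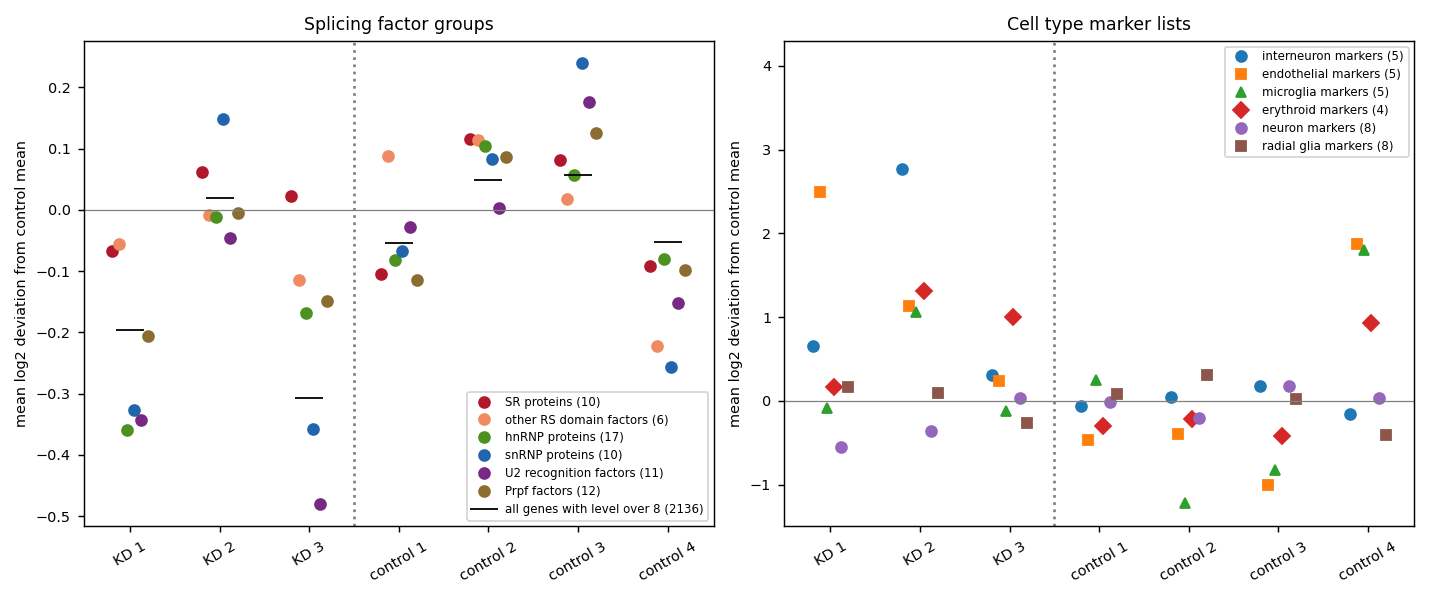
Mean log2 deviation from the control mean in each array (KD, knockdown) for the role groups of splicing factors (left, with the black bar for all 2136 bright genes) and for marker lists (right); numbers in brackets are genes. Most splicing factor groups lie low in knockdown replicates 1 and 3 and near or above 0 in replicate 2, which has the highest interneuron marker value (2.77).

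The SR proteins, which bind exonic enhancers, were split in direction. Of 10 genes 6 were lower and 4 higher, with a median of -0.0054 that was 0.10 after a further quantile normalization, 0.12 after cyclic loess normalization and -0.11 with equal array medians. Srsf2 (Entrez 20382), a general exon activator of nuclear speckles, read 10.11, 10.20 and 10.30 in knockdown samples and 10.09, 9.999, 10.07 and 9.90 in controls. All its knockdown arrays lay above all controls, by a narrow margin. The difference was 0.19 (SE 0.10, 95% interval -0.05 to 0.43), with an unadjusted p of 0.109 by limma. Srsf3 (Entrez 20383), the smallest of the classical SR proteins, read 11.53, 11.75 and 11.74 in knockdown samples and 11.72, 11.69, 11.70 and 11.61 in controls. Its groups overlapped and the difference of -0.0041 (95% interval -0.25 to 0.24) changed sign with single arrays left out and with the scaling. Its other 2 probe sets differed by -0.03 and -0.01.

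Srsf12 and Srsf9 had the largest SR differences, in opposite directions. Srsf12 (Entrez 272009), an SR-related protein whose probe set reads near the low end of the scale, read 4.18, 4.52 and 4.91 in knockdown samples and 3.93, 3.95, 4.00 and 4.26 in controls. Knockdown replicate 1 lay below control replicate 4, so the groups overlapped, and the difference was 0.50 (SE 0.19; 0.31 without knockdown replicate 3). Srsf9 (Entrez 108014), a small SR protein that acts on exon choice, read 7.99, 8.13 and 7.39 in knockdown samples and 7.96, 8.498, 8.66 and 8.41 in controls. Its difference of -0.54 (SE 0.23) came with overlapping groups and was -0.32 without knockdown replicate 3. Srsf1, the prototype of the family, differed by 0.09 and Srsf5, Srsf6, Srsf10 and Srsf11 by -0.08, -0.02, -0.10 and -0.0067. For 8 of the 10 SR genes the 95% interval lay within a 1.5-fold change in either direction.

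The other RS domain factors went both ways, with a median of -0.07 that was above 0 after a further quantile (0.025) or cyclic loess normalization (0.059) and with the mean over probe sets (0.028). Srrm2 (Entrez 75956), a scaffold protein of nuclear speckles, read 10.81, 10.47 and 10.64 in knockdown samples and 10.41, 10.51, 10.33 and 10.23 in controls. Knockdown replicate 2 lay below control replicate 2, and the difference was 0.27 (SE 0.12). Srrm4 (Entrez 68955), which drives the inclusion of neuronal microexons, read 9.26, 8.97 and 8.67 in knockdown samples and 9.46, 9.37, 9.25 and 8.91 in controls. Its difference of -0.28 (SE 0.19) lay within the spread of the arrays. Neuron markers had a median difference of -0.45 in the same arrays, with 6 of 8 lower and 2 higher. Their mean level was 9.001, 9.19 and 9.58 in knockdown replicates 1 to 3, a rise where Srrm4 fell. A relation between Srrm4 and these markers was not tested. Tra2a (Entrez 101214), a protein that binds GA-rich enhancers, read 9.48, 9.58 and 9.30 in knockdown samples and 9.51, 9.996, 9.76 and 9.68 in controls (difference -0.28, SE 0.14). The groups overlapped, and the other probe sets of Tra2a differed in the opposite direction, so the mean over its 3 probe sets was 0.31. Its relative Tra2b differed by -0.11, and Son and Srrm1, both proteins of nuclear speckles, by 0.08 and -0.02.

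The hnRNP proteins were lower for 16 of 17 genes, beside 50.2% of all genes and 76.5% of bright genes, where 14 of the 17 lay. Their median of -0.20 was -0.11 after a further quantile and -0.065 after cyclic loess normalization. Hnrnpa0 (Entrez 77134), which binds AU-rich RNA, had the smallest p of all 66. It read 6.18, 6.22 and 5.96 in knockdown samples and 6.47, 6.79, 6.40 and 7.09 in controls. All knockdown arrays lay below all controls, and the difference was -0.57 (SE 0.19, 95% interval -1.005 to -0.13), so knockdown signal was 67.4% of control signal. Its unadjusted p was 0.0174 and its adjusted p 0.825 by limma, and the difference lay between -0.66 and -0.43 with any 1 array left out. Hnrnpab (Entrez 15384), an abundant hnRNP of the nucleus and cytoplasm, read 10.50, 10.81 and 10.43 in knockdown samples and 10.86, 10.89, 10.89 and 10.73 in controls. Knockdown replicate 2 lay inside the control range, and the difference was -0.27 (SE 0.12).

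Hnrnpl (Entrez 15388), a reader of CA-rich RNA, behaved like Hnrnpab, with 9.57, 9.76 and 9.39 in knockdown samples and 9.85, 9.76, 9.91 and 9.72 in controls. Its difference was -0.24 (SE 0.12), again with replicate 2 among the controls. Several other hnRNP genes differed little. Hnrnpk (Entrez 15387), which binds C-rich stretches, read 11.09, 11.30 and 11.19 in knockdown samples and 11.24, 11.31, 11.33 and 11.12 in controls. Its difference was -0.06 (95% interval -0.31 to 0.20), and 0.04 or 0.07 after a further quantile or cyclic loess normalization. Hnrnpa2b1, Hnrnpu, Hnrnph1 and Hnrnpd differed by 0.0090, -0.07, -0.07 and -0.04, while Hnrnpul2, whose groups did not overlap, differed by -0.26 (SE 0.14). The widest interval of the group belonged to Hnrnpc (-0.29, 95% interval -1.10 to 0.52).

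**Figure D4:**
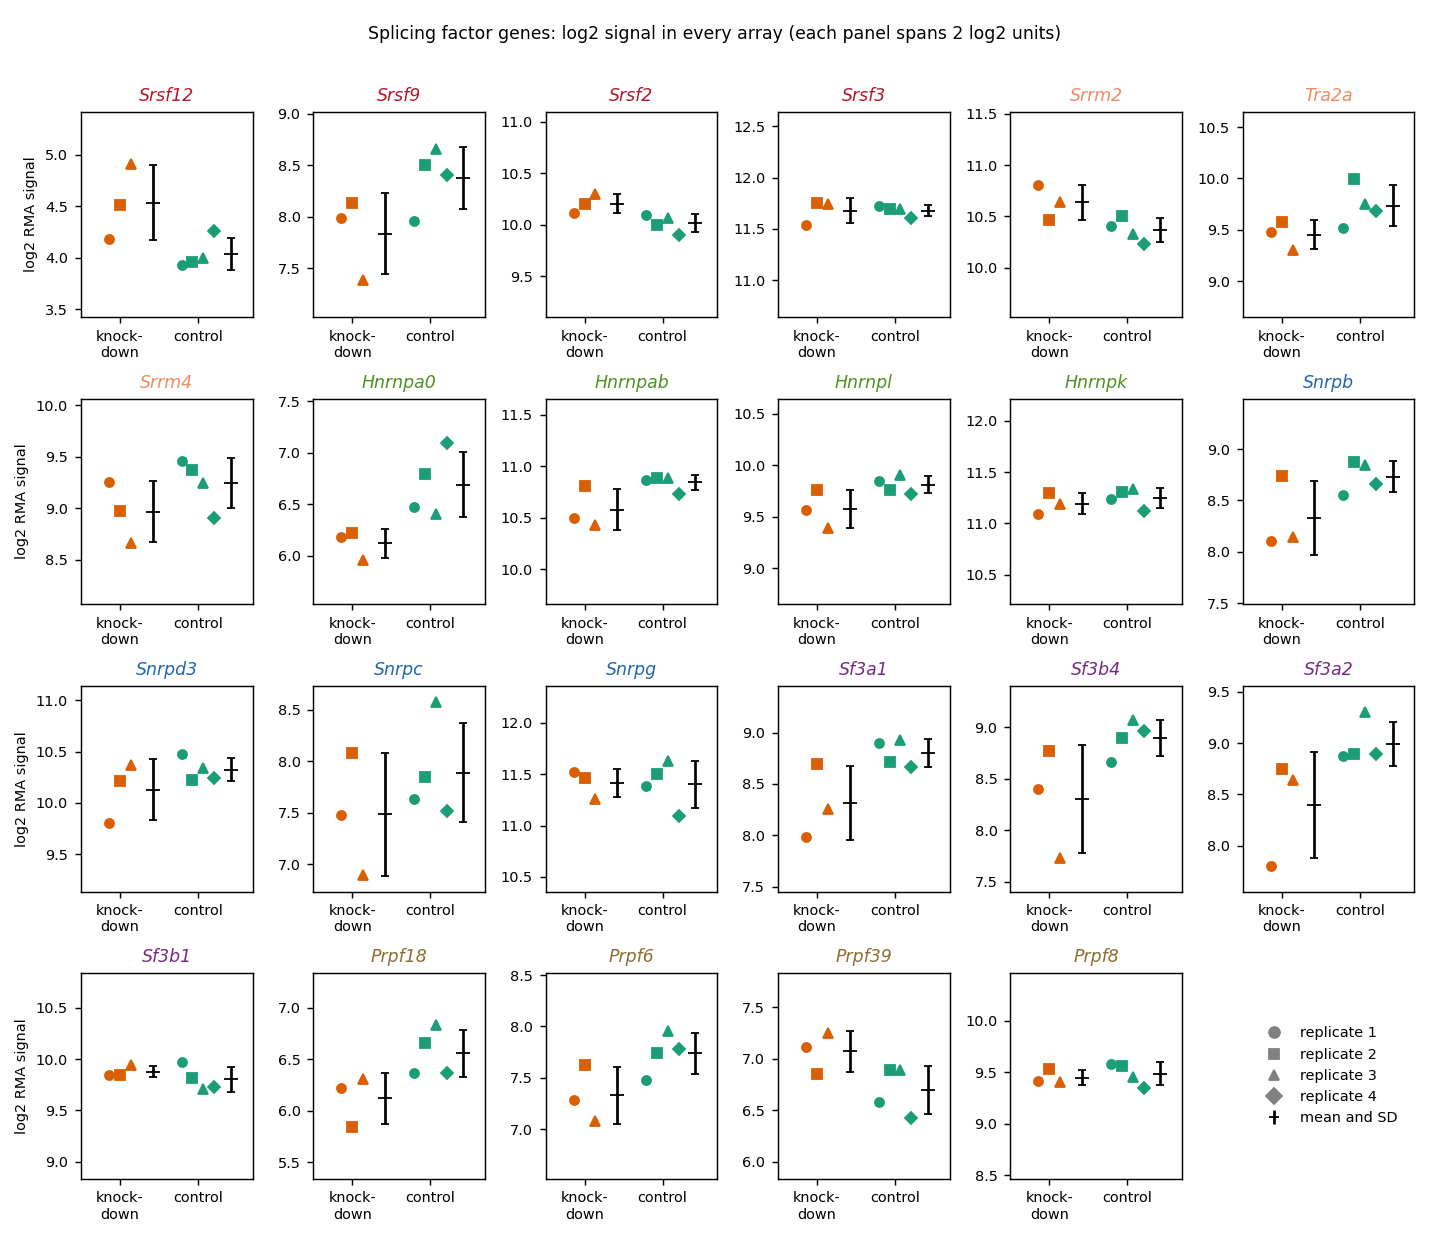
Log2 RMA signal in every array for 23 splicing factors, knockdown (orange) left of control (green), with the replicate number as the marker shape and the mean with its SD in black; every panel spans 2 log2 units and title colours mark the role group. In the panels of Hnrnpa0, Prpf18 and Sf3a2 all knockdown points lie below all control points, and in that of Srsf2 they lie above.

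Among the snRNP proteins 9 of 10 were lower, beside 50.2% of all genes and 76.5% of bright genes, where 9 of the 10 lay. Their median of -0.13 was 0.0003 after cyclic loess normalization, and none reached an unadjusted p under 0.05. Snrpb (Entrez 20638), a protein of the Sm ring that all spliceosomal snRNPs except U6 share, read 8.10, 8.74 and 8.14 in knockdown samples and 8.55, 8.87, 8.84 and 8.66 in controls. Replicates 1 and 3 of the knockdown lay below all controls and replicate 2 among them, and the difference was -0.40 (SE 0.18). Snrpd3 (Entrez 67332), also of the Sm ring, read 9.80, 10.21 and 10.37 in knockdown samples and 10.48, 10.23, 10.34 and 10.25 in controls. Its difference of -0.19 (SE 0.16) came from knockdown replicate 1, since it was -0.030 without that array. Snrpc (Entrez 20630), the U1 protein that contacts the 5′ splice site, read 7.48, 8.08 and 6.89 in knockdown samples and 7.63, 7.84, 8.58 and 7.51 in controls. These values spread over more than the difference of -0.41 (SE 0.34). Snrpg (Entrez 68011), another Sm ring protein, read 11.52, 11.46 and 11.26 in knockdown samples and 11.38, 11.50, 11.63 and 11.09 in controls. Its difference of 0.01 (95% interval -0.34 to 0.37) changed sign with single arrays and with equal array medians. Snrpa, Snrpa1 and Snrpb2, which sit on U1 and U2 RNA, differed by -0.12, -0.13 and -0.11.

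The branch point and 3′ splice site factors held 3 of the 7 genes that were lower at an unadjusted p under 0.05. That is 27.3% of the 11, beside 3.61% of all genes and 10.4% of genes with a mean level over 8, where all 11 lay. Their median was -0.30 over 11 genes with 8 lower (-0.21 after a further quantile and -0.17 after cyclic loess normalization). Sf3a1 (Entrez 67465), a subunit of the SF3A complex that joins the U2 snRNP, read 7.98, 8.70 and 8.26 in knockdown samples and 8.90, 8.71, 8.93 and 8.66 in controls. Knockdown replicate 2 lay just inside the control range and the other replicates below it, for a difference of -0.49 (SE 0.18, 95% interval -0.91 to -0.07). Sf3a2 (Entrez 20222), of the same complex, read 7.81, 8.75 and 8.64 in knockdown samples and 8.88, 8.89, 9.31 and 8.89 in controls. Its groups did not overlap, but the difference of -0.59 (SE 0.25) was -0.29 without knockdown replicate 1.

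Sf3b4 (Entrez 107701), an SF3B subunit that contacts RNA near the branch point, read 8.40, 8.77 and 7.73 in knockdown samples and 8.66, 8.90, 9.08 and 8.96 in controls. Its difference of -0.60 (SE 0.24) was -0.31 without knockdown replicate 3, and its dimmer probe set differed by -0.86 (SE 0.22). Not all subunits of these complexes were low. Sf3b1 (Entrez 81898), the large SF3B subunit that holds the branch point helix, read 9.84, 9.85 and 9.94 in knockdown samples and 9.97, 9.82, 9.70 and 9.72 in controls. Its groups overlapped, with a difference of 0.07 (95% interval -0.18 to 0.33) that was -0.03 with equal array medians. Sf3b3 differed by 0.11, Sf3b2 by -0.21 with groups that did not overlap, and U2af1 and U2af2, which read the 3′ splice site and the polypyrimidine tract, by -0.20 and 0.0014. Sf3b5, Sf3b6 and Sf3a3 differed by -0.45, -0.54 and -0.30, within the spread of their arrays. Of Sf3a1, Sf3a2, Sf3a3, Sf3b2, Sf3b3 and Sf3b6, whose promoters hold CCGGAAG, all but Sf3b3 had differences below 0. So had 8 of all 11 factors of this role and 76.5% of genes with a mean level over 8. Sf3b4, Sf3b5 and U2af2 had no promoter window. A relation between the word and the difference was not tested.

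Of the 12 Prpf factors 9 were lower and 3 higher, with a median of -0.15 (-0.062 and -0.023 after a further quantile and cyclic loess normalization). Prpf18 (Entrez 67229), a factor of the second catalytic step, read 6.22, 5.84 and 6.31 in knockdown samples and 6.37, 6.65, 6.84 and 6.37 in controls. The groups did not overlap, with knockdown replicate 3 close to the nearest control, and the difference was -0.44 (SE 0.17). Prpf6 (Entrez 68879), which bridges the parts of the tri-snRNP, read 7.29, 7.62 and 7.08 in knockdown samples and 7.48, 7.74, 7.96 and 7.78 in controls. Knockdown replicate 2 lay above control replicate 1, and the difference was -0.41 (SE 0.17). Prpf39 (Entrez 328110), known from yeast as a U1 snRNP component, read 7.12, 6.85 and 7.25 in knockdown samples and 6.58, 6.89, 6.89 and 6.42 in controls. It was the largest positive difference of this group, 0.38 (SE 0.17), with replicate 2 again among the controls. Prpf8 (Entrez 192159), the protein at the heart of the catalytic centre, read 9.41, 9.53 and 9.40 in knockdown samples and 9.58, 9.56, 9.45 and 9.35 in controls. Its difference of -0.04 (95% interval -0.29 to 0.21) was 0.08 or 0.09 after a further quantile or cyclic loess normalization. Prpf19, Prpf31, Prpf38b and Prpf4 differed by -0.11, -0.18, -0.16 and -0.36.

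The precision bounds what could be missed for a single gene. The 95% interval lay within a 2-fold change in either direction for 57 of the 66 genes and within 1.5-fold for 33. Over all 19938 genes the interval lay within these bounds for 16537 and 10440. These intervals are not adjusted for the number of genes, and the spread was larger in knockdown samples for 42 of the 66, with a median SD of 0.21 in knockdown samples and 0.17 in controls.

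**Figure D5:**
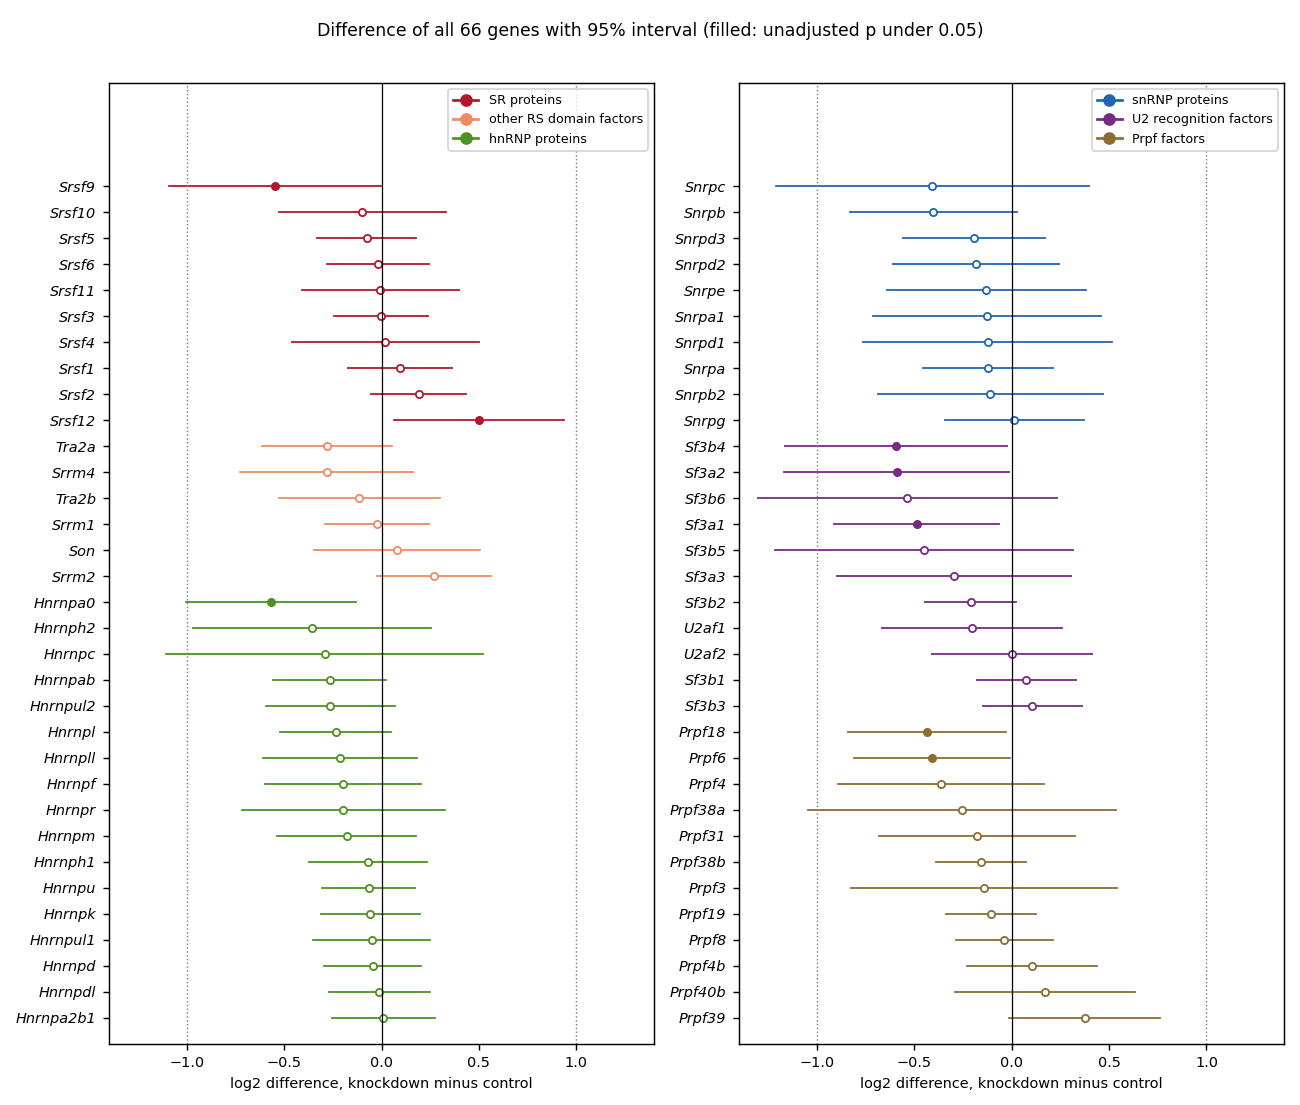
Log2 difference (knockdown minus control, points) with limma's 95% interval (lines) for all 66 genes by role group; filled points have an unadjusted p under 0.05, and dotted lines mark a 2-fold change. Most points lie just left of 0, and 57 intervals stay between the dotted lines.

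Partner genes of the splicing pathway, taken by name with earlier results of these data known, had medians of the same small size. Of 63 measured subunits of the spliceosome outside the 66, 50 were lower and 13 higher, with a median of -0.15. The share lower was 50.2% over all genes and 76.5% over bright genes. At an unadjusted p under 0.05, 6 were lower and 1 higher, where the share lower was 3.61% over all genes and 10.4% over bright genes. The smallest p in that list belonged to Cwc27, a cyclophilin-type protein of the spliceosome (-0.49, SE 0.11), and to Luc7l, a U1-associated factor (0.40, SE 0.12). Exon junction and nonsense-mediated decay genes had a median of -0.13 over 12 genes, with Smg1, the kinase that starts decay, at 0.47 (SE 0.16) and the junction helicase Eif4a3 at -0.70 (SE 0.24). The SR protein kinases with the SR importer had a median of -0.03 over 8 genes, with Srpk1 at -0.26 and Clk1 at 0.17. Cleavage and polyadenylation genes had a median of -0.12 over 16 genes, with the smallest p for Nudt21 (-0.46) and Cpsf1 (-0.24), and mRNA export genes -0.11 over 10, with the smallest p for Ddx39b (0.29) and Nxt1 (-0.72). Neuronal and tissue regulators of splicing had a median of -0.08 over 28 genes, of which 3 were lower at an unadjusted p under 0.05, beside the same 3.61% and 10.4%. Among them Khdrbs1, an RNA-binding signalling protein, differed by -0.33 (SE 0.12) and Nova2, a neuronal regulator, by -0.52 (SE 0.20). No gene of these lists passed limma's test over all genes.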

How the data were processed

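RNA of sorted cells was amplified by a whole-transcriptome method, biotin-labelled and hybridised to 7 arrays, per the labels' protocols. The authors deposited log2 values, for which the submitters' processing notes name RMA and Affymetrix Expression Console 1.2. RMA corrects background, equalises probe quantiles between arrays and summarises probe sets, and it compresses differences of dim sets. No genome build is named in the labels or the table. The table held 35556 probe sets, of which 21789 had exactly 1 gene symbol in the platform annotation (1621 had several and 12146 none), and symbols were checked through Entrez identifiers in RefSeq (GRCm38.p6), where 21698 matched. Each gene was taken from its brightest such probe set. Arrays have no count depth, and their number limits the precision. Array medians were 4.51, 4.47 and 4.61 in knockdown replicates 1 to 3 and lay between 4.40 and 4.45 in controls. Every knockdown median was thus above every control median, and the part of this in the differences was not tested. No pair of arrays was identical, and array correlations over probe sets, which are not independent, were 0.937 to 0.976.

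The knockdown minus control difference was fitted in R 4.3.3 with limma 3.58.1 (lmFit, eBayes, two-sided, 5 residual and 2.36 prior degrees of freedom), without covariates, with Benjamini-Hochberg adjustment over all genes. P-values measure the spread between these samples. The 66 genes and the partner lists were chosen with earlier results of these data known. Genes given in every array were, per role group, the 3 with the smallest p and the brightest. Pairing of replicate numbers was checked by correlating deviations from the group means (0.028, -0.051 and 0.072 for same-numbered arrays), which does not pair them. On simulated data of 19938 genes with 200 changed, 50% of genes changed by 1 log2 unit were recovered, with 7.6 false calls per run. The simulated noise was independent between genes, with no shift shared by an array. The differences of the 66 genes ran from -0.60 to 0.50, so the recovered share does not give the power for them. Alternatives were other priors, scalings, filters, probe set means, a replicate block and arrays left out.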

Additional observations from a re-analysis of the deposited data

Results flagged for a closer look

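In the controls, 4 of the 66 genes had 1 array far from the other 3 by Dixon's ratio, and chance flags about 1 group in 20. Sf3a2 read 9.31 in control replicate 3, against 8.88 to 8.89 in the other controls, and its knockdown arrays read 7.81 to 8.75. Tra2b read 10.13 in control replicate 4, against 10.47 to 10.50. Srrm1 read 8.77 in control replicate 4, against 9.03 to 9.05. Srsf5 read 10.51 in control replicate 1, against 10.61 in each of the other controls. With the other controls equal, a gap of any size is flagged, and this gap was small.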

How the results depend on the processing

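No gene and none of the 66 splicing factors passed limma's adjusted threshold in any setting run. The 7 lower and 1 higher splicing factors at an unadjusted p under 0.05 became 13 and 0 with equal array medians, 4 and 3 after a further quantile normalization, 2 and 4 after cyclic loess normalization, and 3 and 0 without the dimmest 50% of genes, where 65 remained. Over all genes, the lower and higher counts were 719 and 439 and became 1507 and 183, 802 and 367, 580 and 482, and 477 and 182 in the same settings. The median of the splicing factors moved to 0.0003 after cyclic loess normalization. With 1 array left out, the lower count ranged from 1 to 10, the higher count from 0 to 2 and the median from -0.23 to -0.038. Leaving out knockdown replicate 2 and control replicate 4 together was an alternative chosen after seeing the data, and it fixes a larger shift. It gave 17 lower and 1 higher, a median of -0.26, and -0.11 for Snrpg. With the replicate number as a block the lower count was 4, and Snrpg was -0.090. Control replicate 4 has no partner, so this fit gives the differences without it. Same-numbered arrays share only a number.

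Of the genes given in every array, the direction turned for Sf3b1 (-0.031) and Snrpg (-0.092) with equal array medians, for Prpf8 (0.082 and 0.089), Srsf3 (0.064 and 0.12) and Hnrnpk (0.040 and 0.069) after a further quantile and cyclic loess normalization, and for Tra2a (0.31) with the mean over probe sets. With 1 array left out, Srsf3 ranged from -0.041 to 0.066 and Snrpg from -0.090 to 0.091. The direction was kept in 154 of 161 such values and in 218 of 229 under the other alternatives. Many of these 229 could not turn. Other priors and the filters of dim genes leave each difference as it was. The mean over probe sets does so for genes with 1 probe set. The 218 is therefore not a measure of robustness, and the cause of the changes was not tested.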

Other observations

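The probe sets of 1 gene mostly gave the same direction. Of the 13 splicing factors with several probe sets, 12 had differences of 1 sign throughout, and the 4 probe sets of Hnrnpf lay between -0.21 and -0.14 and the 5 of Snrpd2 between -0.21 and -0.07. Tra2a was the exception. One of its dimmer probe sets, which the annotation ties to cDNA clones and not to the RefSeq transcript, read 8.15, 6.62 and 7.13 in knockdown samples and 6.85, 6.55, 6.16 and 5.80 in controls, a difference of 0.96 (SE 0.39), highest in knockdown replicate 1. The third, tied to clones as well, differed by 0.25 (SE 0.15), against -0.28 for the brightest. The probe sets of Tra2b both lay below 0 but at -0.11 and -0.68 (SE 0.28 for the second). The part of each transcript that these probe sets read was not looked up here.

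Probe sets shared between genes, which are not among the 66, all had differences below 0. The 5 that Hnrnpa1 shares with related sequences differed by -0.18 to -0.13, with means of 11.17 to 11.61 in knockdown samples and 11.35 to 11.75 in controls. The 9 shared by Hnrnpa3 differed by -0.24 to -0.09, and those of Hnrnph3 and Snrpf by -0.11 and -0.05.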
